A study of Mus musculus with 2 samples.

Results

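The 8 genes described here, *Hmgcs1*, *Idi1*, *Fdps*, *Fdft1*, *Sqle*, *Lss*, *Insig1* and *Srebf2*, were chosen by symbol as genes of cholesterol synthesis, out of the 32285 genes in the count tables. They were measured by single-cell RNA sequencing (scRNA-seq) of mononuclear cells from mouse quadriceps, in 2 libraries collected on day 1 and day 3 after an injection of 1.2% BaCl2, which kills myofibers and starts their repair. Each library held the pooled cells of 5 male *WT* *C57BL/6J* mice of 14 weeks, and no uninjured library was analysed here. The cells were released by digestion, which leaves the myofibers behind, sorted on light scatter and frozen before the libraries were made. A total of 6735 cells of day 1 and 4627 cells of day 3 were kept, with medians of 9389 and 14548 unique molecular identifiers (UMIs, the count of captured mRNA molecules) per cell. No cell barcode was shared between the called cells of the libraries. With 1 library per day there are no replicates and no test between days, and every interval below is a 95% interval that covers counting error only. The labels name the same kit for both libraries, but the files list 737280 barcodes for day 1 and 6794880 for day 3, and whatever lies behind that difference cannot be told apart from the day.

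Cholesterol is built from acetyl-CoA through the mevalonate pathway. Cells sense the sterol content of the endoplasmic reticulum through SCAP and the INSIG proteins, and when sterol is low SCAP carries the transcription factor SREBP-2 to the Golgi, where it is cut and released to the nucleus to induce the enzymes of the pathway. When sterol is plentiful, oxysterols hold SCAP in place and activate the liver X receptors (LXR), which induce genes of cholesterol export. In injured muscle, macrophages take up the membranes of dead myofibers, while dividing progenitors need sterol for new membrane.

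*Hmgcs1* encodes the cytosolic synthase that makes HMG-CoA, and lies at chr13:119690379-119708260 on the plus strand of mm10 (GRCm38). *Idi1*, the isomerase of the isoprene unit (chr13:8885501-8892451, plus), and *Fdps*, farnesyl diphosphate synthase (chr3:89093588-89101959, minus), act next. *Fdft1*, squalene synthase (chr14:63145150-63179578, minus), *Sqle*, squalene epoxidase (chr15:59315077-59331192, plus), and *Lss*, lanosterol synthase (chr10:76531588-76557138, plus), form the first steps that are committed to sterols. *Insig1*, which retains SCAP (chr5:28071363-28078662, plus), and *Srebf2*, which encodes SREBP-2 (chr15:82147181-82205379, plus), are the 2 regulators. No other counted gene overlaps any of the 8 on the same strand. On the opposite strand, *Gm48342* overlaps *Hmgcs1*, *Ctsb* overlaps *Fdft1* and *4930483K19Rik* overlaps *Lss*.

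Promoter sequences of 5 of the 8 genes were matched in the RefSeq table (GRCm38.p6), and the parts upstream of the annotated start are shown for the pathway's first enzyme in the set and for both regulators, since SREBP-2 is known to act on promoters of this kind. Capitals mark matches, on either strand, to the SREBP motif TCACNCCAC, the NF-Y box CCAAT, which reads ATTGG on the other strand, and the CACGTG letters of the E-box. No 2 of the marked matches overlap.
Hmgcs1, chr13:119690101-119690350, plus strand: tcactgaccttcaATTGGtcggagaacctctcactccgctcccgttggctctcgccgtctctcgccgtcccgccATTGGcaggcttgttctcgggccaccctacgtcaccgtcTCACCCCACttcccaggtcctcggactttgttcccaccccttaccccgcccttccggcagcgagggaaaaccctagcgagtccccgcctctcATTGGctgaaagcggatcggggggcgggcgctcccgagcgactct
Insig1, chr5:28071162-28071362, plus strand: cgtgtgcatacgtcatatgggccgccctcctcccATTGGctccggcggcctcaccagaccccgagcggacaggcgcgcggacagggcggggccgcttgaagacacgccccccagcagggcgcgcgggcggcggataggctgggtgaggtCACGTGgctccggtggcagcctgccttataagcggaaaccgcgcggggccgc
Srebf2, chr15:82147019-82147180, plus strand: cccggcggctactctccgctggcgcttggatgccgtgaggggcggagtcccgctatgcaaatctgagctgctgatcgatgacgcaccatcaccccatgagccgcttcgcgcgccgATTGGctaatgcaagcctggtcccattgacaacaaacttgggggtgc
In the full windows of 300 bases, TCACNCCAC was found in *Hmgcs1* alone among the 5 genes and in 1.24% of all 32851 promoters. CCAAT was found in all 5 and in 37.4% of all promoters, and CACGTG in *Insig1* and in 7.15% of all promoters. A match is a string of letters and was not tested as a binding site.

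The cells fell into 13 clusters, which are called here by their leading gene. Names ending in -like rest on markers. The Serpinb2-, Ppbp- and Gm9733-led clusters (1489, 1118 and 766 cells of day 1) and the Fcrls-, Ifi213- and Gpnmb-led clusters (1286, 877 and 597 cells of day 3) were monocyte/macrophage-like. Marker support was weakest in the Gm9733-led cluster, with 5 of 10 markers raised and a mean log2 fold over the other clusters of -0.60. In the Serpinb2-led cluster 6 of 10 were raised, with a mean of 0.02. The Gm9733-led cluster also had the monocyte genes *Chil3* and *Plac8* among its leading genes. The Ifi213-led cluster had the interferon-induced genes *Ifit3*, *Rsad2* and *Irf7*. The H2-Aa-led cluster (418 and 450 cells) was led by MHC class II genes, raised both macrophage and dendritic cell markers and stayed unnamed. The Sfrp2-led cluster (838 cells of day 3) was fibroblast/FAP-like, FAP being the fibro/adipogenic progenitor. The Cxcl5-led cluster (633 cells of day 1) had all 8 fibroblast/FAP markers in at least 10% of its cells, with *Dcn* at 3996 UMIs per 1000000 UMIs of the group (CPM), but it was led in part by the tendon marker *Thbs4* at 851 CPM and stayed unnamed. The Ttn-led cluster (200 cells of day 3) was satellite cell/myoblast-like, the Cldn5-led cluster (94 and 57 cells) endothelial-like and the Retnlg-led cluster (1071 and 129 cells) neutrophil-like, and the shallow Il23a-led cluster (980 and 120 cells) carried neutrophil markers but stayed unnamed. Most clusters came almost wholly from 1 library, so such a cluster may be that library and not a cell type. The 8 genes and the naming markers were kept out of the features used for clustering, but the other sterol genes described below were not.

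The 8 genes together made up 501.6 CPM of all UMIs on day 1 and 389.0 CPM on day 3. Across the 18 groups of a cluster and a day with at least 50 cells, their summed level ranged from 88.6 CPM (76.4 to 102) in the Retnlg-led cluster of day 1 to 806 CPM (783 to 831) in the H2-Aa-led cluster of day 1. The Gm9733-led cluster of day 1 came next at 715 CPM (697 to 733). Myeloid cells thus held both ends of the order. The Sfrp2-led (582 CPM) and Ttn-led (575 CPM) clusters of day 3 followed, with intervals that overlapped, and the Ifi213-led cluster of day 3 (538 CPM) overlapped with the Cxcl5-led cluster of day 1 (534 CPM). In the middle of the order, the Cldn5-led and Serpinb2-led clusters of day 1 (both 475 CPM) overlapped, as did the H2-Aa-led cluster of day 3 (421 CPM) with the Ppbp-led cluster (405 CPM) and that with the Ifi213-led cluster of day 1 (366 CPM). The Fcrls-led cluster of day 3 stood at 197 CPM (192 to 203) and the Gpnmb-led cluster of day 3 at 113 CPM (107 to 119), below the other monocyte/macrophage-like clusters. On day 1 the 3 large monocyte/macrophage-like clusters spanned 405 to 715 CPM, and on day 3 the 3 large ones spanned 113 to 538 CPM.

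**Figure D1:**
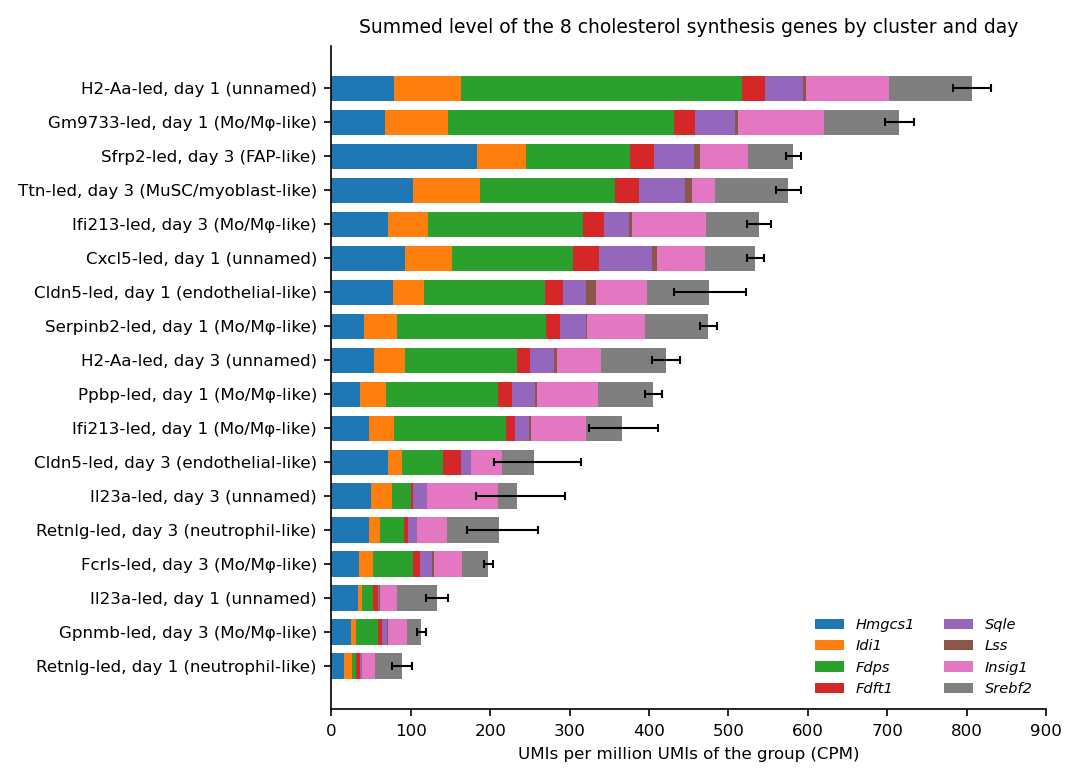
Horizontal bars give the summed level of the 8 genes in CPM for the 18 groups of a cluster and a day with at least 50 cells, split by gene in pathway order, with the 95% counting interval of the sum as the error bar. The H2-Aa-led cluster of day 1 is highest at 806 CPM, and the Gpnmb-led cluster of day 3 (113 CPM) and the Retnlg-led cluster of day 1 (88.6 CPM) are lowest.

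The enzymes differed in where they peaked. *Hmgcs1* reached 183 CPM in the Sfrp2-led cluster of day 3, against a median of 51.9 CPM over the 18 groups and a low of 16.2 CPM in the Retnlg-led cluster of day 1. *Idi1* was highest in the H2-Aa-led cluster of day 1 at 84.5 CPM (76.9 to 92.7). The Ttn-led cluster of day 3, at 84.0 CPM, lay inside that interval. The median of *Idi1* was 35.6 CPM, and its lowest level was 5.33 CPM in the Gpnmb-led cluster of day 3. *Fdps* was highest in the same H2-Aa-led group at 355 CPM, with a median of 141 CPM, and lowest in the Retnlg-led cluster of day 1 at 6.03 CPM. For *Fdps* the top group was therefore myeloid, and for *Hmgcs1* stromal. For *Idi1* a myeloid and a satellite cell/myoblast-like group were level at the top. *Fdft1* and *Sqle* were both highest in the Cxcl5-led cluster of day 1, at 32.8 and 66.2 CPM. *Lss* was the sparsest of the 8, with 626 UMIs in all kept cells, a high of 13.2 CPM in the Cldn5-led cluster of day 1 that rested on 12 UMIs, and no UMI in the Cldn5-, Il23a- and Retnlg-led clusters of day 3. A count of 0 allows up to 3 UMIs in each group. The regulators were less spread than *Fdps*. *Insig1* ranged from 15.8 CPM in the Retnlg-led cluster of day 1 to 108 CPM in the Gm9733-led cluster of day 1, and *Srebf2* from 17.5 CPM in the Gpnmb-led cluster of day 3 to 105 CPM in the H2-Aa-led cluster of day 1. In the Ttn-led cluster of day 3, *Insig1* was at 29.5 CPM, under its median of 60.4 CPM, while *Hmgcs1*, *Idi1* and *Sqle* stood at 103, 84.0 and 56.9 CPM, above theirs.

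**Figure D2:**
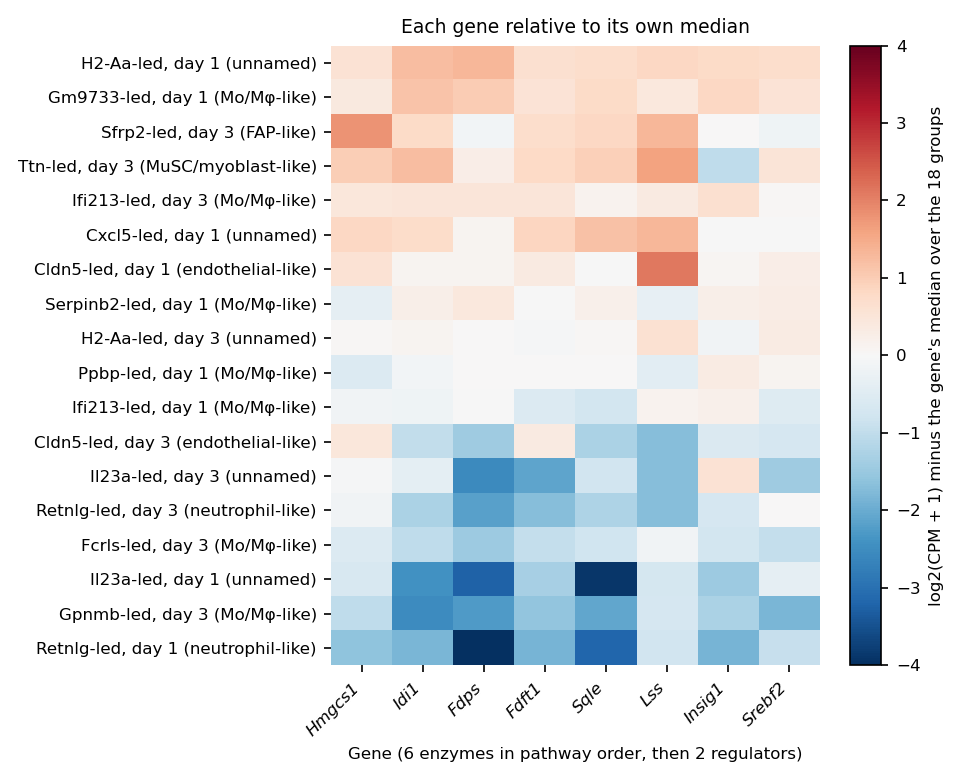
Colour gives log2(CPM + 1) of each gene minus that gene's median over the 18 groups, which are ordered by the summed level. The columns follow the pathway, with the regulators *Insig1* and *Srebf2* last. *Hmgcs1* stands out in the Sfrp2-led cluster of day 3 (183 CPM against a median of 51.9 CPM), and *Idi1* lies far below its median in the Gpnmb-led cluster of day 3 (5.33 against 35.6 CPM).

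Over all cells, the summed level was lower on day 3 by a log2 ratio of -0.37 (-0.39 to -0.35), a value that mixes the level within cell types with the makeup of the sample. The median log2 ratio of all genes with at least 50 UMIs was 0.46, so values are also given relative to that median. On that scale the sum was at -0.83. *Fdps* was at 179 CPM on day 1 and 105 CPM on day 3, a log2 ratio of -0.76. *Insig1* was at 72.4 and 48.5 CPM, a log2 ratio of -0.58, and *Srebf2* at 74.2 and 50.5 CPM, a log2 ratio of -0.56. These 3 were the lowest on day 3 relative to day 1. *Sqle* (-0.40), *Idi1* (-0.29) and *Fdft1* (-0.26) were lower by less, and as the mean of each cell's CPM they were at -0.031, -0.016 and, with the direction turned, 0.11. *Hmgcs1* was higher, at 58.6 and 89.0 CPM, a log2 ratio of 0.60 and of 0.14 relative to the median gene. *Lss*, at 3.61 and 4.38 CPM, had a log2 ratio of 0.28 that became -0.18 relative to the median gene. None of the 8 was at least 2-fold lower or higher, against 5.63% of 14133 genes at least 2-fold lower and 27.8% at least 2-fold higher.

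In monocyte/macrophage-like cells the 8 genes were lower on day 3, at 496 CPM in 3510 cells of day 1 and 246 CPM in 2825 cells of day 3, a log2 ratio of -1.01 (-1.04 to -0.98). *Fdps* was at 189 CPM on day 1 and 75.5 CPM on day 3, a log2 ratio of -1.33 (-1.39 to -1.27). *Srebf2* was at 79.1 and 35.3 CPM, a log2 ratio of -1.16 (-1.25 to -1.07). *Idi1* was at 46.0 and 21.0 CPM (-1.13, from -1.25 to -1.02), and *Sqle* at 34.9 and 16.7 CPM (-1.06, from -1.20 to -0.94). These 4 of the 8 were at least 2-fold lower, against 5.04% of 11617 genes, and none was at least 2-fold higher, against 29.1%. *Insig1* followed at 81.0 and 44.8 CPM (-0.85), then *Fdft1* at 19.3 and 11.2 CPM (-0.78). *Hmgcs1* was nearly level, at 44.3 and 39.9 CPM, a log2 ratio of -0.15 (-0.25 to -0.06), and *Lss*, on 78 and 91 UMIs, had a log2 ratio of 0.09 (-0.36 to 0.55). The median of the 8 log2 ratios was -0.96, beside 0.48 for all genes tested. Relative to that median the sum was at -1.49, *Hmgcs1* at -0.64 and *Lss*, with the sign turned, at -0.39. The count of 4 sits close to the threshold: when each cell was given equal weight, thinned to 3000 UMIs, or left out with fewer than 200 genes per 1000 UMIs, none of the 8 was at least 2-fold lower and the sum was at -0.67, -0.70 and -0.72. Different clusters held the class on each day, the Serpinb2-, Ppbp- and Gm9733-led ones on day 1 and the Fcrls-, Ifi213- and Gpnmb-led ones on day 3. Neutrophil markers summed to 1903, 412 and 2069 CPM in those of day 1 and to 134, 1412 and 87.5 CPM in those of day 3, and their part in the difference was not tested. The median mitochondrial share of the class was 2.55% on day 1 and 4.19% on day 3, and 517 of 7367 and 2013 of 6640 called cells were over the limit of 7.5%. With a limit of 15% or none, the sum was at -1.12 and -1.25. Collagen genes put the ambient part of the class, the RNA picked up from the suspension, at 1.82% of its UMIs on day 1 and 1.77% on day 3.

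Other genes of sterol handling differed by role in the same cells. Of 16 further synthesis enzymes, 3 were at least 2-fold lower on day 3: *Sc5d* (-1.26), *Cyp51* (-1.24, from 79.2 to 33.5 CPM) and *Hsd17b7* (-1.07). *Dhcr7*, a reductase of the final steps, was at least 2-fold higher, at 5.18 and 16.1 CPM, a log2 ratio of 1.63, and the median of the 16 was -0.30. Of 6 genes of LXR and efflux, 4 were at least 2-fold higher and none lower. *Abcg1*, an exporter of cholesterol to HDL, was at 8.94 and 70.2 CPM (2.97), *Mylip*, an LXR target that encodes a ubiquitin ligase, at 11.5 and 39.9 CPM (1.80), *Nr1h3*, which encodes LXR-alpha, at 15.3 and 51.4 CPM (1.75) and *Apoe*, the lipoprotein component, at 3066 and 8762 CPM (1.51). The median of these 6 was 1.63. The shares of all genes to set beside these counts are the 5.04% lower and 29.1% higher given above, and the counts of 1 of 5 and 1 of 9 below lie under the latter. Of 5 genes of esterification, hydrolysis and oxysterols, 3 were at least 2-fold higher: *Ch25h* (3.03, from 0.958 to 7.89 CPM), the lysosomal lipase gene *Lipa* (2.43, from 57.5 to 310 CPM) and *Cyp27a1* (1.29). Of 5 genes of sterol sensing and SREBP processing, *Scap* was at least 2-fold higher (1.03) and none was at least 2-fold lower, with a median of 0.66. Of 5 uptake and transport genes tested 1 was at least 2-fold lower and none higher, with a median of 0.47, and of 9 fatty acid synthesis genes tested *Fads1* was at least 2-fold higher (2.16) and none was lower, with a median of 0.22. All these medians stand beside 0.48 for all genes tested.

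Groups present on both days gave different directions. In the H2-Aa-led cluster the sum was at 806 CPM on day 1 and 421 CPM on day 3, a log2 ratio of -0.94 (-1.01 to -0.86). All 7 members with at least 50 UMIs had a log2 ratio below 0, and *Fdps* (355 and 141 CPM, -1.33) and *Idi1* (84.5 and 38.5 CPM, -1.13) were at least 2-fold lower, against 3.77% of 8603 genes, with 15.7% at least 2-fold higher and a median of 0.27. The cells called by that cluster differed in dendritic cell markers, of which 1 of 9 was found in at least 10% of cells on day 1 and 5 of 9 on day 3, while their summed level was 559 CPM on day 1 and 389 CPM on day 3. *Ccr7* was at 151 and 38.9 CPM and *Fscn1* at 92.3 and 3.09 CPM, and *Cd209a* at 177 and 238 CPM. Its neutrophil markers summed to 1444 and 153 CPM. The part of either list in the difference was not tested. In the Ifi213-led cluster the sum was higher on day 3, at 366 CPM in 94 cells of day 1 and 538 CPM in 877 cells of day 3, a log2 ratio of 0.56 (0.38 to 0.74) and of 0.22 relative to the median gene. *Fdft1* was the 1 of 7 members that was at least 2-fold higher, on 9 UMIs of day 1, at 1.03 (0.15 to 2.25). The other 6 lay between 0.42 and 0.85, against 19.4% of 8378 genes at least 2-fold higher and 4.20% at least 2-fold lower. The sum of the Ifi213-led cluster thus had the opposite sign to that of its class. Its count of 1 of 7 lies under the share of all genes. Relative to the median gene, the 7 members lay between 0.08 for *Insig1* and 0.69 for *Fdft1*. Neutrophil markers of the Ifi213-led cluster summed to 17780 CPM on day 1, led by *S100a8* at 7945 CPM, and to 1412 CPM on day 3. Their part in the difference was not tested. The Cldn5-led cluster, with 57 cells and 89 UMIs of the 8 genes on day 3, was at 475 and 256 CPM, a log2 ratio of -0.89 (-1.24 to -0.56), with *Fdps* at 153 and 51.7 CPM (-1.53), where 11.3% of 3975 genes were at least 2-fold lower. In that cluster neutrophil markers summed to 3474 and 68.9 CPM, erythroid markers to 1816 and 8.62 CPM, monocyte/macrophage markers to 1527 and 414 CPM, T/NK cell markers to 39.5 and 1858 CPM and pericyte markers to 367 and 1031 CPM, and their part in the difference was not tested. The Il23a-led cluster, with 70 UMIs on day 3, was at 132 and 233 CPM, a log2 ratio of 0.83 (0.43 to 1.19), with an estimated ambient part of 6.01% and 22.0% of the level. Its members differed in direction, with *Insig1* at 2.10 and *Srebf2* at -1.004 on 7 UMIs of day 3. Its neutrophil markers summed to 77633 and 28158 CPM, monocyte/macrophage markers to 408 and 3411 CPM and fibroblast/FAP markers to 22.6 and 873 CPM, and their part was not tested.

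Fibroblast/FAP-like cells of day 1 were too few to serve as a baseline, with 23 cells and 69 UMIs of the 8 genes. Against them the 838 cells of day 3 gave a log2 ratio of 0.62 (0.29 to 1.00), and across the alternatives of processing the value ranged from -0.38 to 1.06. The Sfrp2-led cluster of day 3 was therefore set beside the Cxcl5-led cluster of day 1. All 8 fibroblast/FAP markers were found in both, but only 4 were raised in the Cxcl5-led cluster, the list summed to 22900 CPM in the Sfrp2-led and 6370 CPM in the Cxcl5-led cluster, and tenocyte markers to 307 and 907 CPM. Their sums were 582 and 534 CPM, a log2 ratio of 0.12 (0.09 to 0.16) that became -0.18 relative to the median gene. *Hmgcs1* stood apart from the other 7, at 92.2 CPM on day 1 and 183 CPM on day 3, a log2 ratio of 0.99 (0.91 to 1.07) and of 0.69 relative to the median gene. The others lay between -0.37 for *Sqle* (66.2 and 51.4 CPM) and 0.05 for *Idi1* (59.3 and 61.6 CPM), the latter and *Insig1* (0.01) turning negative relative to the median gene. None of the 8 was at least 2-fold lower or higher, against 7.15% of 12283 genes lower and 23.6% higher. In the Sfrp2-led cluster monocyte/macrophage markers summed to 1265 CPM and in the Cxcl5-led cluster to 348 CPM, led in the first by *C1qb* at 274 CPM. In the same order, neutrophil markers summed to 105 and 614 CPM and pericyte/smooth muscle markers to 308 and 25.8 CPM. The part of these lists in the difference was not tested. Expected ambient *Hmgcs1* was 25.8 of the 183 CPM, where the ambient profile of day 3 itself held 85.5 CPM. The estimate was scaled in part by *C1qb*, found in 45.7% of Sfrp2-led cells of day 3. It cannot tell ambient RNA from doublets. In 16 further synthesis enzymes the median was 0.47, with *Tm7sf2* (1.76) and *Dhcr7* (1.11) at least 2-fold higher, beside 0.31 for all genes tested. Of the 6 genes of LXR and efflux, 4 were at least 2-fold higher and none lower (median 1.57), with *Abca1* at 11.3 and 38.6 CPM (1.77) and *Nr1h3* at 24.1 and 14.0 CPM (-0.78). Counts of genes at least 2-fold higher were 3 of 5 for esterification, hydrolysis and oxysterols (median 1.23), 3 of 6 for uptake and transport (1.01), 2 of 10 for fatty acid synthesis (0.65) and 1 of 5 for sterol sensing (-0.07), with none lower.

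**Figure D3:**
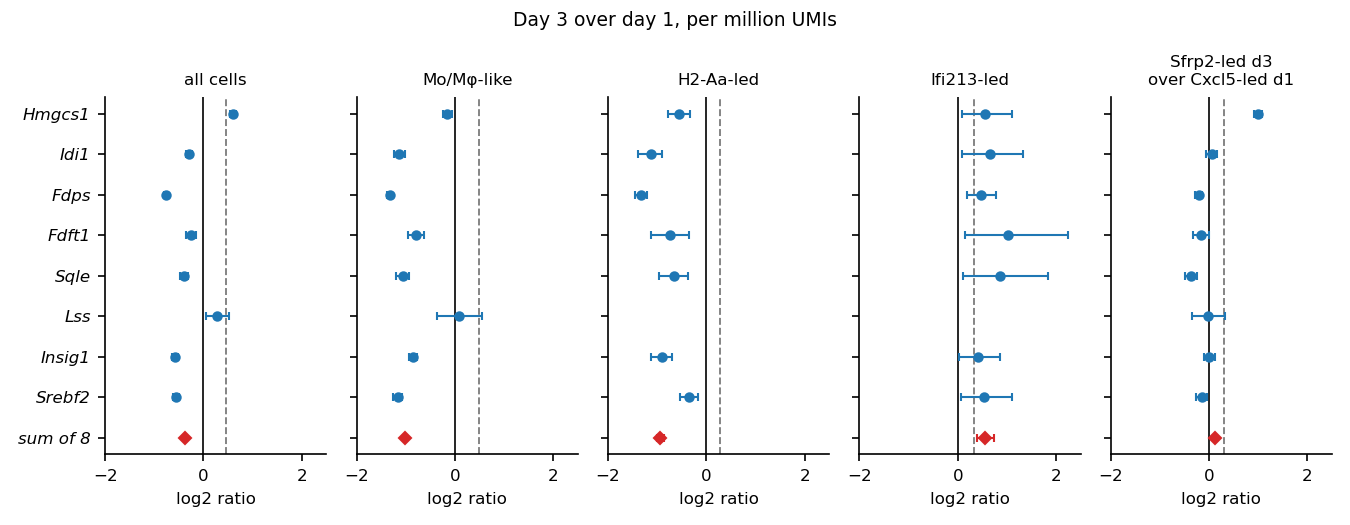
Each panel plots log2 ratios of CPM, day 3 over day 1, for the 8 genes (blue) and their sum (red), with 95% counting intervals. The dashed line is the median of all genes with at least 50 UMIs, and members under that minimum are left out. Most members lie left of 0 in monocyte/macrophage-like cells (Mo/Mφ-like) and in the H2-Aa-led cluster, right of it in the Ifi213-led cluster, and only *Hmgcs1* lies far to the right when the Sfrp2-led cluster of day 3 is set against the Cxcl5-led cluster of day 1.

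Within day 3, where the library is the same, the monocyte/macrophage-like clusters differed. The Ifi213-led cluster was taken as the base after the levels had been seen, since it was the highest of the 3. In the Gpnmb-led cluster, *Idi1* was at 5.33 CPM against 50.5 CPM in the Ifi213-led cluster, a log2 ratio of -3.24 (-3.63 to -2.87). *Fdps* was at 28.4 against 196 CPM (-2.79), and *Sqle* at 6.03 against 32.0 CPM (-2.40). *Fdft1* (-2.25), *Insig1* (-1.95), *Srebf2* (-1.91) and *Hmgcs1* (-1.50) were also lower. All 7 members with at least 50 UMIs were at least 2-fold lower and none higher, against 10.8% of 9866 genes lower and 7.52% higher, with a median of -2.25 beside -0.07 for all genes. The Fcrls-led cluster lay between. There, *Fdps* was at 50.7 CPM (-1.95), *Idi1* at 16.9 CPM (-1.58) and *Fdft1* at 8.60 CPM (-1.56), and 6 of the 8 were at least 2-fold lower and none higher, against 5.99% and 10.3% of 10593 genes. The summed log2 ratio was -2.25 (-2.34 to -2.17) for the Gpnmb-led cluster and -1.45 (-1.51 to -1.39) for the Fcrls-led cluster. The neutrophil marker list summed to 1412 CPM in the Ifi213-led cluster, led by *S100a8* at 1073 CPM, and to 134 and 87.5 CPM in the Fcrls- and Gpnmb-led clusters, and its part in these differences was not tested.

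The remaining sterol genes of the Gpnmb-led cluster split by role. All 16 further synthesis enzymes had log2 ratios below 0 against the Ifi213-led cluster, and 10 were at least 2-fold lower, with a median of -1.46, beside the 10.8% of all genes lower and 7.52% higher given above. *Cyp51*, lanosterol demethylase, was at 8.65 against 84.6 CPM (-3.28), *Hsd17b7* at 1.93 against 7.55 CPM (-1.95) and *Sc5d* at 10.2 against 24.3 CPM (-1.25). Of 5 uptake and transport genes tested, 3 were at least 2-fold lower and none higher, with a median of -1.32. Among them *Stard4*, a carrier of cholesterol between membranes, was at 4.64 against 25.4 CPM (-2.45), and *Npc1*, which releases cholesterol from lysosomes, was at 0.69. Of the 6 genes of LXR and efflux, 5 were at least 2-fold higher and none lower, with a median of 2.05. *Abca1*, the exporter of cholesterol to lipid-poor apolipoproteins, was at 215 against 35.8 CPM (2.58), *Apoe* at 16114 against 3055 CPM (2.40), *Nr1h3* at 80.1 against 15.9 CPM (2.33) and *Abcg1* at 120 against 34.9 CPM (1.78). Of 5 genes of esterification, hydrolysis and oxysterols, 3 were at least 2-fold higher and none lower: *Lipa*, at 487 against 123 CPM (1.98), *Soat1*, which esterifies cholesterol for storage (1.04), and *Nceh1* (1.002). *Cyp27a1* was at 4.87 against 9.29 CPM (-0.93). *Scap*, *Insig2*, *Srebf1*, *Mbtps1* and *Mbtps2*, the genes of sterol sensing and SREBP processing, lay between -0.35 and 0.41, none 2-fold different. Of 8 fatty acid synthesis genes tested, *Elovl6* (-2.91), *Acss2* (-1.83) and *Fasn* (-1.50) were at least 2-fold lower and none was higher. Genes of these lists took part in the clustering, so their differences between clusters are a description.

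**Figure D4:**
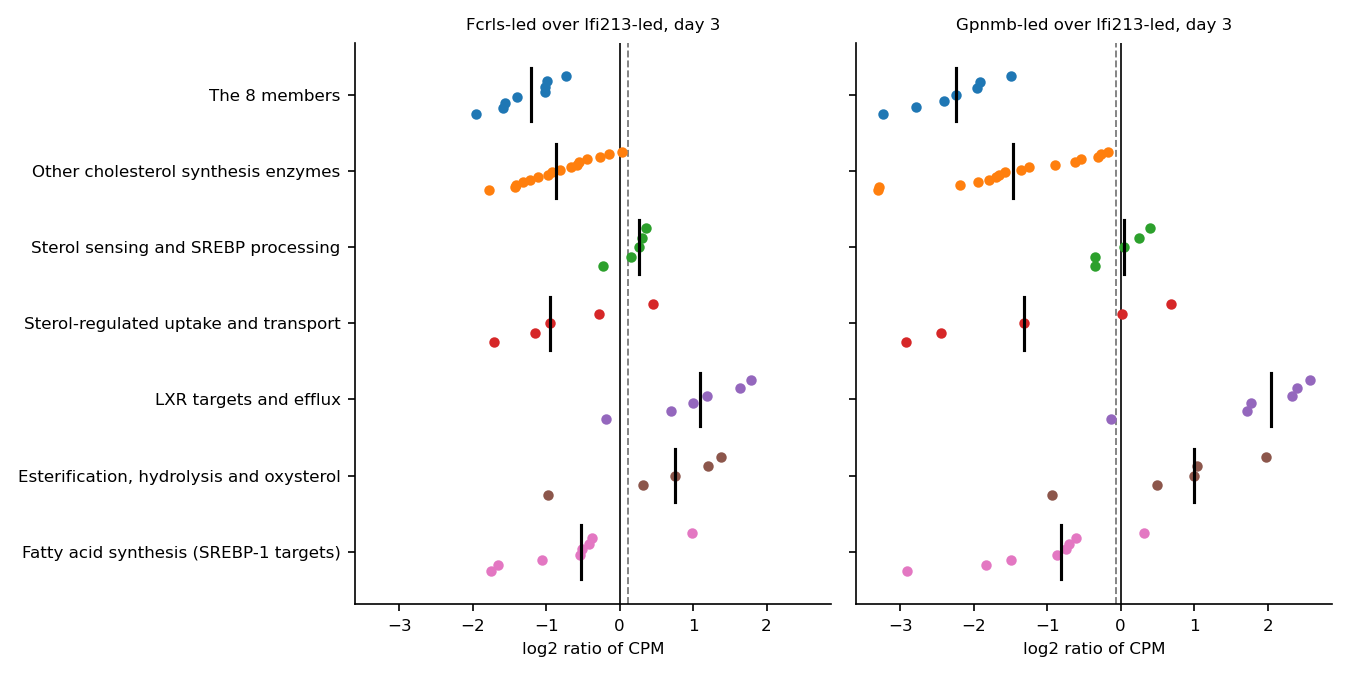
Points give the log2 ratio of CPM of each gene with at least 50 UMIs, in the Fcrls-led (left) and Gpnmb-led (right) clusters over the Ifi213-led cluster of day 3, grouped by list. Black ticks are list medians and the dashed line the median of all genes. The members plotted, 8 on the left and 7 without *Lss* on the right, lie left of 0 (median of -2.25 on the right), as do the other synthesis enzymes except 1 in the left panel at 0.03 (median of -1.46 on the right), and most genes of LXR and efflux lie to the right (2.05).

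The share of cells with a UMI of a gene rises with depth, so shares are given as measured and after each cell was thinned to 3000 UMIs, which left out shallower cells. *Fdps* was found in 54.6% of cells of the Gm9733-led cluster (day 1), 57.2% of the Ifi213-led (day 3), 44.3% of the Fcrls-led (day 3) and 38.9% of the Gpnmb-led cluster (day 3), whose median depths were 10507, 9168, 15559 and 21122 UMIs. After thinning, the shares were 36.6%, 33.9%, 12.9% and 5.71%. The Ifi213-led and Gm9733-led clusters changed places, and both lower clusters, which held the deepest cells, stayed lower by a wider ratio. No background share was measured from a group known to lack these genes. The lowest share, 1.21% before thinning and 3.92% after it, was in the neutrophil-like cells of day 1 at a median of 1953 UMIs, of which 51 reached 3000 UMIs and 1020 did not. *Idi1* was found after thinning in 16.3% of Gm9733-led, 12.1% of Ifi213-led, 4.84% of Fcrls-led and 1.68% of Gpnmb-led cells. Any of the 8 was found in 25.04% of thinned Gpnmb-led cells, 40.2% of Fcrls-led cells, 62.1% of Ifi213-led cells and 75.5% of Ttn-led cells. Per 3000 UMIs, a Gpnmb-led cell held a mean of 0.306 UMIs of the 8 genes and an Ifi213-led cell of day 3 a mean of 1.65.

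Within the fibroblast/FAP-like and monocyte/macrophage-like cells of day 3, dividing cells had a lower or a similar summed level. Cells with at least 3 UMIs over 8 cycling genes (*Mki67*, *Top2a*, *Birc5*, *Pclaf*, *Ube2c*, *Cdk1*, *Ccna2* and *Cenpf*) were set against cells with none. In fibroblast/FAP-like cells, 417 cycling cells had a summed level of 566 CPM and 244 non-cycling cells 644 CPM, a log2 ratio of -0.19 (-0.25 to -0.13), and no member was at least 2-fold lower or higher, against 3.64% of 11349 genes lower and 7.89% higher. In monocyte/macrophage-like cells, 654 cycling cells had 171 CPM and 1528 non-cycling cells 321 CPM, a log2 ratio of -0.91 (-0.97 to -0.84). *Fdps* (107 CPM in non-cycling and 42.1 CPM in cycling cells, -1.35), *Fdft1* (-1.02) and *Insig1* (-1.003) were the 3 of 8 at least 2-fold lower, and none was higher, against 3.06% and 8.40% of 10721 genes. Cluster makeup moved with that difference, since cycling cells made up 36.7% of the Fcrls-led, 20.6% of the Gpnmb-led and 6.27% of the Ifi213-led cluster of day 3. Within the Fcrls-led cluster the summed log2 ratio was -0.35 (-0.45 to -0.25), within the Gpnmb-led cluster 0.03 (-0.16 to 0.21) and within the Ifi213-led cluster -0.94 (-1.13 to -0.76, on 55 cycling cells). In the last, neutrophil markers summed to 1689 CPM in non-cycling and 359 CPM in cycling cells and monocyte/macrophage markers to 5504 and 8479 CPM, and their part was not tested. In the Fcrls-led cluster neutrophil markers summed to 247 CPM in non-cycling and 74.0 CPM in cycling cells. Fibroblast/FAP markers there summed to 85.7 and 175 CPM, and the part of either list was not tested. Cycling cells were the deeper ones, partly by construction, with a median of 22960 against 11031 UMIs in monocyte/macrophage-like cells and 34324 against 18666 in fibroblast/FAP-like cells. The Ttn-led cluster of day 3, which was high at 575 CPM, had 198 cycling cells of 200 and allowed no such comparison.

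The 8 genes varied together over the 18 groups. Each was correlated with the mean profile of the other 7, on log2(CPM + 1), as a description over groups that share 2 libraries and their depth. *Idi1* (Pearson r = 0.94), *Fdps* (0.93), *Sqle* (0.91) and *Fdft1* (0.87) followed the others most closely, then *Hmgcs1* (0.76), *Srebf2* (0.72), *Lss* (0.67) and *Insig1* (0.65). Among 10380 other genes with at least 500 UMIs, the 10 with the pattern most like the mean of the 8 included *Cyp51* (0.94), *Msmo1* (0.91), *Cldnd1* (0.88), *Foxp4*, *Btf3*, *Tmem39a*, *Rpl8*, *Rps13* and *Rps6*. *Cyp51* and *Msmo1*, the enzymes that remove methyl groups from lanosterol, were thus at ranks 1 and 2 of a ranking that was blind to function, and 3 ribosomal protein genes shared the list. *Hsd17b7* (0.81, rank 33), *Stard4* (0.79, rank 67) and *Nsdhl* (0.79, rank 73) were also near the top. The further synthesis enzymes were not uniformly alike. *Dhcr7* was at 0.39 (rank 3414), far below the fatty acid synthesis gene *Fasn* at 0.76 (rank 137). Of the genes of LXR and efflux, *Mylip* was at -0.65, *Abca1* at -0.62, *Abcg1* at -0.55 and *Nr1h2* at -0.29, while *Nr1h3* (0.13) and *Apoe* (0.11) were above 0. *Lbr* (-0.12) was the one further synthesis enzyme below 0 among those ranked, which leaves out *Tm7sf2*, with too few UMIs.

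**Figure D5:**
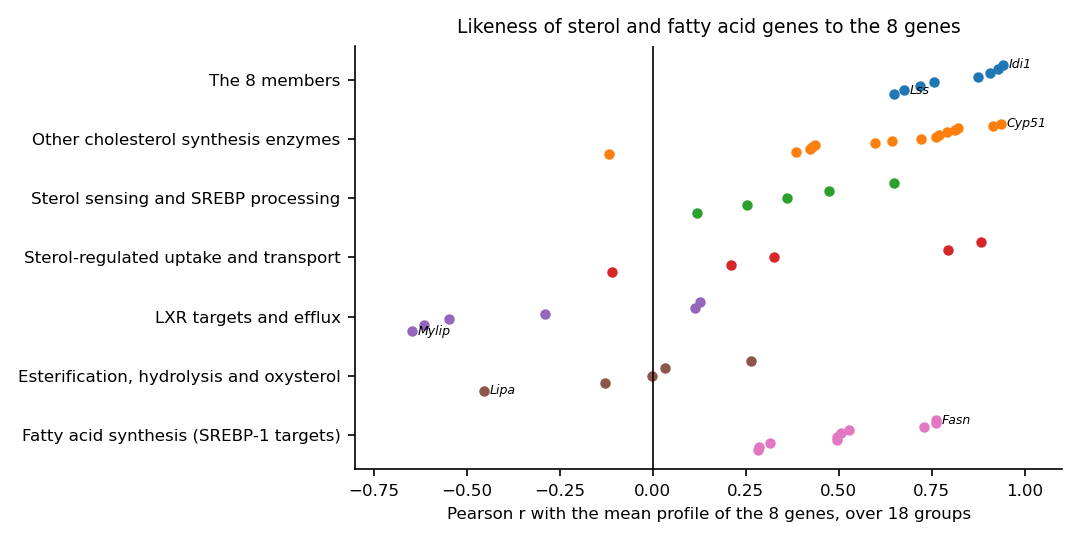
Points give the Pearson correlation over 18 groups of a cluster and a day between each gene, on log2(CPM + 1), and the mean standardised profile of the 8 genes, or of the other 7 for a member. *Cyp51* (0.94) is as close as *Idi1* (0.94), the closest member, and *Mylip* (-0.65) lies farthest to the left among the genes plotted.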

How the data were processed

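Raw UMI counts, deposited by the authors with neither normalization nor a call of cells, came from 10x Genomics 3′ libraries. Submitters' processing notes name Cell Ranger 5.0.0 and mm10, while the matrix headers name version 4. As cells, the 7367 and 6640 barcodes with the most UMIs were used (74852240 and 102565783 UMIs in all). Of these, cells under 200 genes or 1000 UMIs, or over 7.5% mitochondrial UMIs, were removed.

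Clustering used SCTransform with regression of the difference between S and G2M scores and of the mitochondrial share (Seurat 5.3.0, sctransform 0.4.2 and R 4.3.3), 10 PCs and a resolution of 0.8. A marker was raised if at least 10% of a cluster's cells had a UMI of it and its CPM reached 25% of its highest cluster. Each cluster was named for the marker list with the largest raised share, with at least 3 markers raised, and stayed unnamed where the 10 leading genes held more markers of another list (Cxcl5-led), where another list with at least 2 raised markers had a higher mean log2 fold (H2-Aa-led), or where the cells had under 1/3 of their library's median UMIs and no marker of the name led (Il23a-led). An earlier rule had left macrophages of day 1 unnamed and was replaced after that was seen. Automatic Scrublet calls marked 1 and 0 cells, which did not work, so no doublets were removed except in an alternative that dropped the 363 and 171 highest scores (scanpy 1.11.5).

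Counts were summed per group and expressed as CPM, with exact Poisson intervals. Each log2 ratio was taken after adding 0.5 to both counts, with a binomial exact interval. Shares of cells were computed at 3000 UMIs per cell. Without replicates, a gene was called when it had at least 50 UMIs and passed a fold of 2. All intervals cover counting error only. To estimate ambient RNA, barcodes of at most 100 UMIs were scaled by *Col1a1*, *Col1a2*, *Col3a1* and *Dcn*, or, for fibroblast/FAP-marked cells, by *C1qa*, *C1qb*, *C1qc*, *S100a8*, *S100a9* and *Lyz2*. Python 3.11.15, numpy 2.4.6, scipy 1.17.1 and pandas 2.3.3 were used.

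Named genes were the 8 members, 6 lists of sterol and fatty acid genes and the 10 genes with the most similar pattern. Some genes of these lists count in the list totals but are not reported here by name. Members and lists were chosen with earlier results of these data known, and the comparisons between clusters of day 3 and of cycling cells within a cluster after the levels were seen. Promoters came from RefSeq (GRCm38.p6) and gene positions from GENCODE M21. On counts simulated for 11617 genes in monocyte/macrophage-like cells, with 200 genes changed, 95.3% of intervals held the true ratio. These counts were drawn from the Poisson model that the intervals assume. The simulation therefore checks the calculation only, and not the spread between cells, mice or libraries.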

Additional observations from a re-analysis of the deposited data

Results flagged for a closer look

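UMIs of the 8 genes were also counted in cells left out for their mitochondrial share alone, which had passed the limits on UMIs and genes. On day 1, 277 such cells had a summed level of 403 CPM (361 to 448), where a count of 0 would allow 3.59 CPM, and on day 3, 1804 such cells had 396 CPM (384 to 409), where a count of 0 would allow 0.309 CPM. The ambient profile of the same libraries held 430 and 360 CPM, and the ambient part of these left-out cells was not estimated. Their levels therefore do not show that the cells themselves expressed the genes.

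Neutrophil-like cells, which are the Retnlg-led cluster, had a log2 ratio of day 3 over day 1 of 1.26 (0.88 to 1.63) for the summed level, from 88.6 to 212 CPM, while monocyte/macrophage-like cells had a log2 ratio of -1.01. The directions were opposite, and the difference was not tested. The neutrophil-like value rests on 191 and 90 UMIs of the 8 genes, and the estimated ambient part was 9.83 CPM (11.1% of the level) on day 1 and 162 CPM (76.7%) on day 3, estimates that have no interval. In the same cells monocyte/macrophage markers summed to 267 and 3820 CPM and fibroblast/FAP markers to 28.7 and 2654 CPM. Their part in the difference was not tested.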

How the results depend on the processing

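No paired analysis was possible because each day had 1 library and the labels give no replicate numbers. The summed log2 ratio over all cells stayed below 0 under the 9 alternatives run for it, at -0.44 with cells called at 10% of the 99th percentile of UMIs, -0.077 as the mean of each cell's CPM, -0.83 after the shift by the median gene and -0.33 without mitochondrial and ribosomal protein genes. In monocyte/macrophage-like cells it also stayed below 0. It was -1.12 with the same cell call, -1.12 and -1.25 with a mitochondrial limit of 15% or none, -0.72 without low-quality cells, -1.07 without the highest Scrublet scores, -0.80 with each library clustered on its own, -1.23 with the highest marker score, -0.67 as the mean of each cell's CPM, -1.49 after the shift and -0.70 after thinning. The count of 4 genes 2-fold lower was 2 with each library clustered on its own and 0 without low-quality cells, with the mean of each cell's CPM and with thinning, and 6 with no mitochondrial limit, with the highest marker score and after the shift. In fibroblast/FAP-like cells, with 23 cells on day 1, the value of 0.62 became 0.15 with the other cell call, 0.13 and 0.13 with a limit of 15% or none, 0.089 without low-quality cells, 0.20 without the highest Scrublet scores, -0.38 with log-normalization, 0.13 with 20 PCs, 0.11 with libraries clustered apart, 0.035 with the highest marker score and 1.06 with thinning. It was 0.13 when the unnamed fibroblast/FAP-marked cluster was counted in, an alternative chosen after seeing the data, as was counting the unnamed macrophage-marked cluster as monocyte/macrophage-like (-1.01). *Lss*, with no UMI in the 23 cells, turned to -0.42 (cell call), -0.28 (Scrublet), -0.96 (log-normalization), -0.052 (libraries apart) and -0.46 (thinning). Of the 16 alternatives in these cells, direction was kept in 6 by *Fdps*, 7 by *Sqle*, 10 by *Insig1* and 11 by *Lss*. It was kept in 13 by *Idi1*, 14 by *Fdft1* and by *Srebf2*, and 16 by *Hmgcs1*. *Fdps*, at 0.74, reached -1.05 with log-normalization. Causes were not tested. By gene, 70 of 72 values over all cells, 119 of 128 in monocyte/macrophage-like cells and 91 of 128 in fibroblast/FAP-like cells kept their direction. Depth limits *Lss*, with 626 UMIs in all, and every group of under 100 cells.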
